A study of Mus musculus with 13 samples.

Results

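The genes described here are those that cells switch on in answer to interferon. They were chosen as a list of 37 symbols, each read by the brightest of its probe sets (highest average over all arrays), and 35 of the 37 could be read, out of 18193 genes on the array. Isg15, the ubiquitin-like modifier, and Ifi44 had no probe set annotated to 1 gene alone in the table used and are not analysed here. The 13 Affymetrix expression arrays hold RNA of 10 mouse neuroblastomas, tumours of the sympathetic nervous system, and of 3 normal adrenal glands, all on a C57BL/6 background. The tumours came from mice with transgenes active in the neural crest, the embryonic source of the sympathetic nervous system. They carried mutated ALK, a receptor tyrosine kinase (called mutALK, n = 3), MYCN, a transcription factor (n = 4), or both transgenes, labelled MYCN AND mutated ALK (called double transgenic, n = 3). The adrenal mice are labelled normal. Tumour-bearing mice were killed once a tumour could be felt, and neither the ages, the promoters of the transgenes nor the kind of ALK mutation are given in the sources used here. Arrays are named by group and a number in deposit order. The double transgenic arrays were deposited under a run of sample numbers apart from that of all other arrays. Whether they were also processed apart is not stated, and such a difference could not be told apart from their genotype. Whether the arrays of a group come from separate animals is not stated in the labels, so p-values measure only the spread between these samples, which may be technical.

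Interferons are secreted proteins that warn cells of infection. Type I interferons bind the receptor pair Ifnar1 and Ifnar2, whose kinases Jak1 and Tyk2 activate a complex of STAT proteins with Irf9. This complex binds the interferon-stimulated response element (ISRE) in promoters. Type II interferon (Ifng) acts through Ifngr1 and Ifngr2 on a different site, the gamma-activated site (GAS). The induced proteins block viral entry, sense and destroy viral RNA, and raise antigen presentation. Many of the same genes have a steady low level in tissues without infection, and macrophages and endothelial cells express many of them.

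The promoter letters show what many of these genes share apart from their name. RefSeq promoter windows of 300 bases (250 before and 50 after the transcription start, mouse assembly GRCm38.p6) were matched by symbol to 26 of the 35 genes, with 31 windows. The core letters of the ISRE were searched as GAAA, any 2 bases and GAAA again on both strands, so that TTTC, any 2 bases and TTTC counts as the same element. This core also fits the site bound by interferon regulatory factors. It was present in the windows of 17 of the 26 genes (65.38%) and in 18 of their 31 windows (58.06%), against 3.44% of all 32851 windows. The GAS letters TTCNNNGAA, which read the same on both strands, were present in 8 of the 31 windows (25.81%) and in 8.3% of all windows. A match of letters is a description and not a binding site.

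The following stretches lie upstream of the start of 9 of the genes, are read 5′ to 3′ on the strand of the gene and have ISRE letters in capitals. They are Ifit1 at chr19:34640775-34640888 (plus strand), Rsad2 at chr12:26456453-26456582 (minus strand), Gbp2 at chr3:142620563-142620662 (plus strand), Igtp at chr11:58199456-58199555 (plus strand), Irgm1 at chr11:48871421-48871520 (minus strand), Bst2 at chr8:71537473-71537612 (minus strand), Trim30a at chr7:104465194-104465293 (minus strand), Cxcl10 at chr5:92348890-92349112 (minus strand), and Ifi35 at chr11:101448312-101448411 (plus strand). The first 8 hold the ISRE letters and show that the element can lie on either strand and, in Irgm1 and Bst2, in 2 overlapping copies. Ifi35 is shown because its window does not hold these letters. Neither window of Ifit2, the one gene below that rose, holds them, and 1 of its windows holds the GAS letters. This does not set Ifit2 apart. The windows of Xaf1, Oasl1, Oasl2, Irf1 and Irf9, which fell, do not hold the ISRE letters either. GAS letters also occur in windows of Irf1, Igtp and Bst2, which fell.
Ifit1: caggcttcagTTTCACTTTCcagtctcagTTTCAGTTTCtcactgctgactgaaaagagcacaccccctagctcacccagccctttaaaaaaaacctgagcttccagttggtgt
Rsad2: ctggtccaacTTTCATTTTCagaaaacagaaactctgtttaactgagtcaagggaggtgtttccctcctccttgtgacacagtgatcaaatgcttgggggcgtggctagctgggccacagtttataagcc
Gbp2: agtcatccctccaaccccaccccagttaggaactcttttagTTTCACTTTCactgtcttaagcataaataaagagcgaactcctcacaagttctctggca
Igtp: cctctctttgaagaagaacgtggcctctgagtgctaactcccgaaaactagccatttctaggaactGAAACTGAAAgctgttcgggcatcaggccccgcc
Irgm1: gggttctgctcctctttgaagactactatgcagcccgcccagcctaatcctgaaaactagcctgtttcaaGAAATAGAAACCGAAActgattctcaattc
Bst2: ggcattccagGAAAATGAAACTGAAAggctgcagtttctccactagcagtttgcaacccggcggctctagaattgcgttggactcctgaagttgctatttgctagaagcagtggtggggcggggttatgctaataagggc
Trim30a: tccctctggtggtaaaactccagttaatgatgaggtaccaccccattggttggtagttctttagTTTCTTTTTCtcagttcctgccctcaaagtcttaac
Cxcl10: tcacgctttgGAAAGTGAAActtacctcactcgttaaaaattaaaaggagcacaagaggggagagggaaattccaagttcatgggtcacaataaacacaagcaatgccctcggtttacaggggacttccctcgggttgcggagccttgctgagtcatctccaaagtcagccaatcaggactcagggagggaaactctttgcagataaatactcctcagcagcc
Ifi35: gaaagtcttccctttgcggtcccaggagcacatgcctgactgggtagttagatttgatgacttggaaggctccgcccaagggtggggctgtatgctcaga

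Values are RMA log2 expression as deposited, so a difference of 1 is a 2-fold change. A level of one gene cannot be set against that of another, because probe sets differ in brightness. Differences are first group minus second ± SE from 1 limma fit over all 13 arrays, two-sided, and a gene was called when its Benjamini-Hochberg adjusted p over 18193 genes was under 0.05. Where 3 values are given for the tumours, they follow the order mutALK, MYCN, double transgenic. The adrenal arrays held the adrenal cortex markers (11 genes) at a mean of 11.56 to 12.93 and the tumours at 5.30 to 6.98. The sympathoadrenal markers (8 genes measured) averaged 10.63 to 12.33 in the tumours and 9.25 to 10.65 in adrenal gland. Transcripts of liver stood high (list mean above 8, 11 genes) in mutALK 1 and 3, MYCN 2, adrenal 2 and double transgenic 1. Xist and the Y-linked genes read female in all adrenal arrays, mutALK 1 and 2, MYCN 4 and double transgenic 1, and male in the others.

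Most of the interferon-stimulated genes were lower in all 3 kinds of tumour than in adrenal gland. In mutALK tumours 22 of 35 fell and 1 rose, against 21% of all genes called lower, 21.3% higher and 42.2% in either direction. In MYCN tumours 29 fell and 0 rose, against 24.8% and 25.4% of all genes (50.2% in either direction), and at an unadjusted limma p under 0.05 in either direction there were 32. In double transgenic tumours 29 fell and 1 rose, against 24.2% and 24.3% (48.6%). The median difference of the 35 genes was -1.32, -2.41 and -2.58 for the 3 kinds of tumour, while the median of all genes lay between -0.03 and 0.00. These 3 comparisons share the same adrenal arrays. The titles of mutALK 2 and 3 begin with 1 shared number, as do those of MYCN 2 and 3. With that number as a random block 17, 29 and 29 genes fell and 0, 0 and 1 rose, against 38.2, 47.6 and 47.1% of all genes called in either direction. Irf1, Irf9, Oas1a, Gbp2, Igtp and Ifit2 then lost their mutALK calls. With such arrays averaged 12, 28 and 29 fell, against 36.6, 46.6 and 47.3% of all genes called in either direction.

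Array by array, 15 of the 35 genes had every one of the 10 tumour arrays below every adrenal array, as did 16.3% of all genes. Another 14 had 9 of the 10 below, and in 12 of these 14 the exception was mutALK 1. Without that array, 27 genes had the remaining 9 tumour arrays below adrenal gland, against 17.4% of all genes. Only Ifit2 had all 10 tumour arrays above every adrenal array, which 15.5% of all genes did. The median gene lay 0.32 below the adrenal mean in mutALK 1 (-0.32), and at -1.48 and -2.14 in mutALK 2 and 3. It lay at -2.50, -2.46, -2.62 and -1.82 in MYCN 1 to 4 and at -2.18, -2.63 and -2.75 in double transgenic 1 to 3. So the median of the 35 genes was below adrenal gland in every tumour array, by least in mutALK 1.

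**Figure D1:**
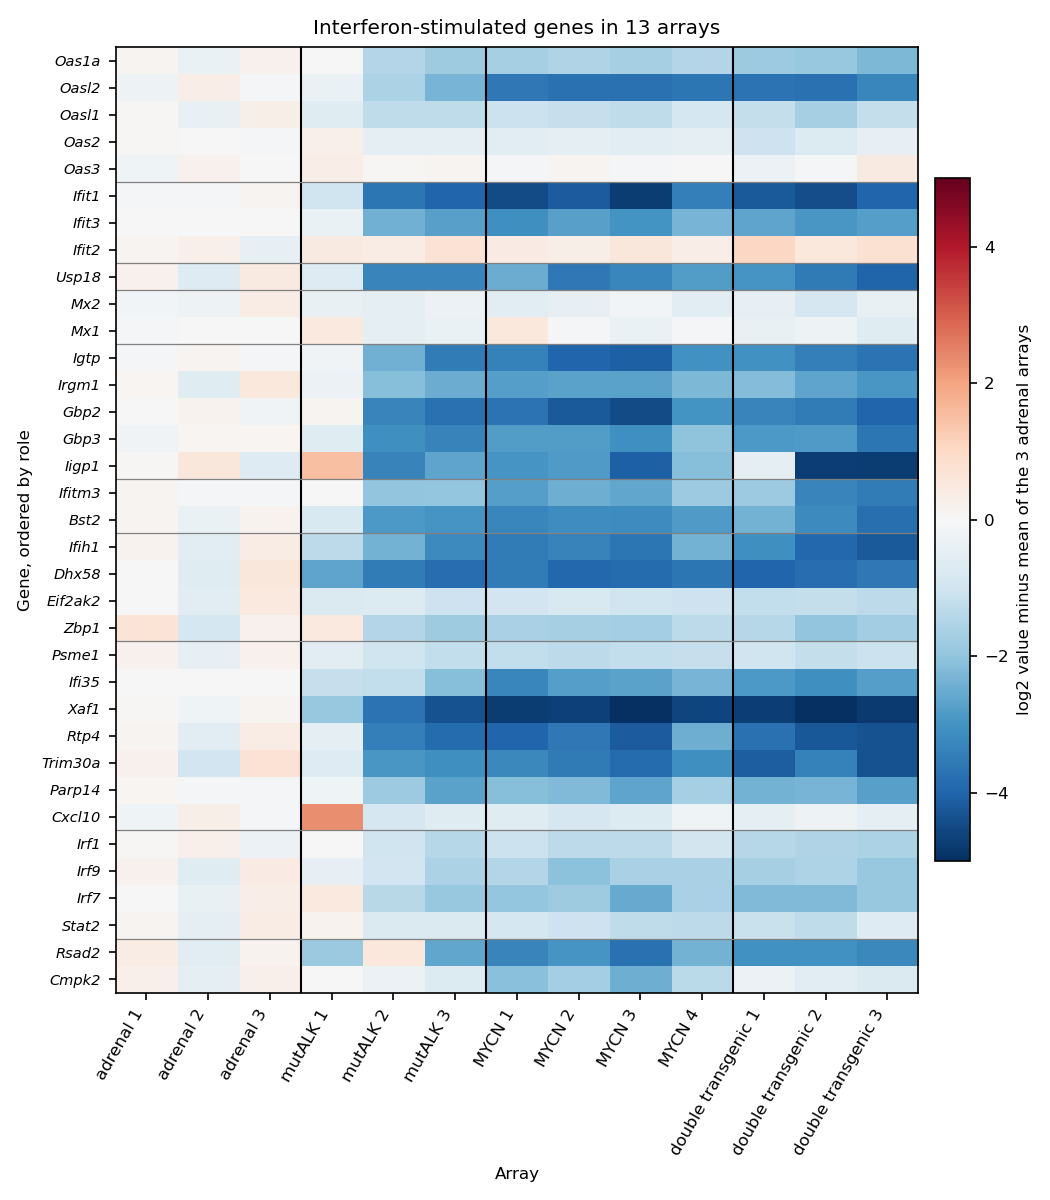
Colour gives the log2 value of each of the 35 genes (rows, ordered by role and split by grey lines) in each of the 13 arrays (columns, split by black lines into groups), minus the mean of the 3 adrenal arrays; blue is lower and red higher. Most rows are blue in 9 tumour arrays, mutALK 1 is pale, Ifit2 is pale red in all tumours, and Mx1, Mx2 and Oas3 stay near white.

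**Figure D2:**
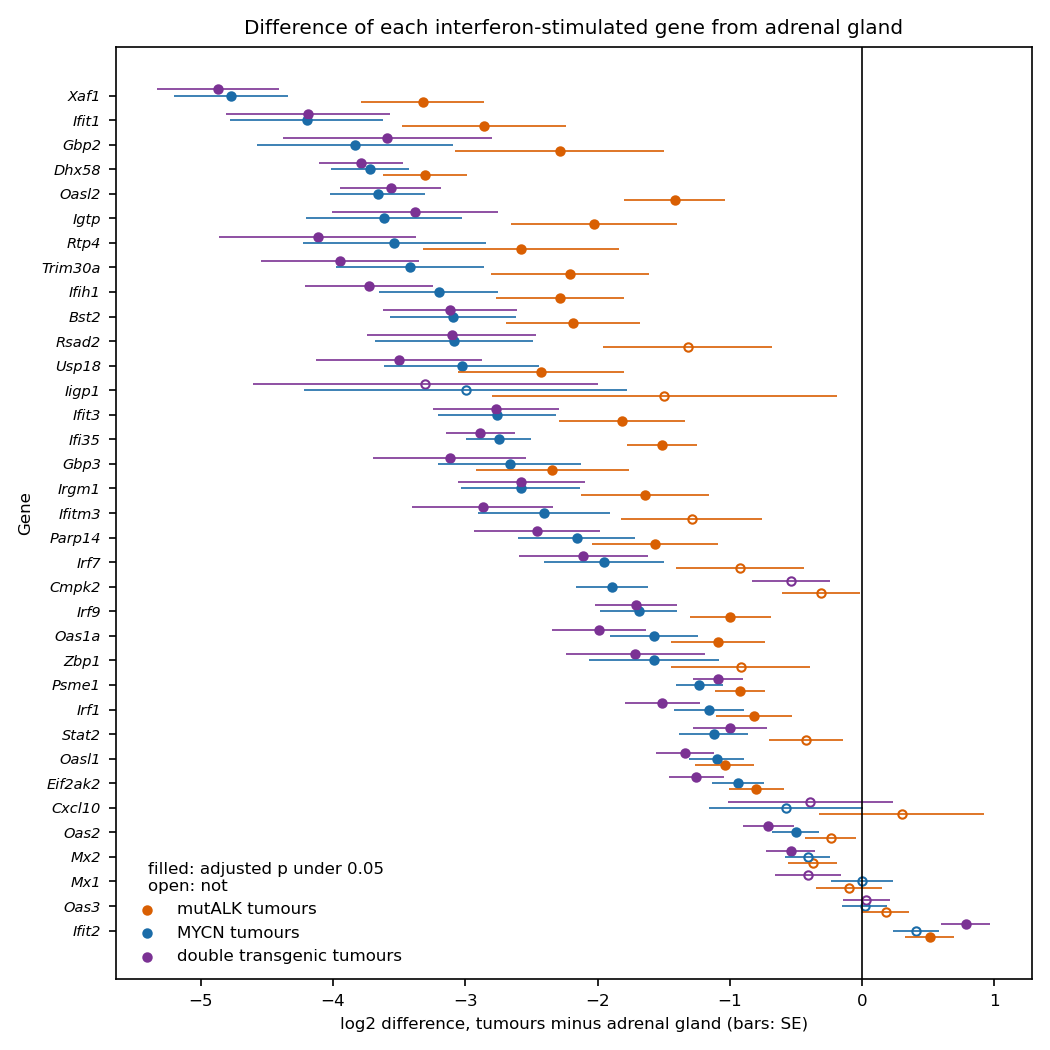
Points are the log2 differences of each tumour group from adrenal gland (x axis; bars are SE, n = 3 mutALK, 4 MYCN, 3 double transgenic and 3 adrenal arrays) for the 35 genes (y axis), filled where the adjusted p was under 0.05. The brighter probe set of Xaf1 (-3.32, -4.77 and -4.87) lies farthest to the left in each kind of tumour, and Ifit2 is the one gene with filled points to the right of 0.

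The 4 transcription factors of the list that carry the interferon signal all fell in MYCN and double transgenic tumours, and 2 of them fell in mutALK tumours. Irf9 binds DNA as part of the type I complex with Stat2. The log2 values of Irf9 were 8.56, 7.77 and 8.76 in adrenal gland, 7.95, 7.39 and 6.77 in the mutALK arrays, 6.91, 6.30, 6.76 and 6.72 in the MYCN arrays and 6.69, 6.82 and 6.45 in the double transgenic arrays. Every tumour array except mutALK 1 lay below all adrenal arrays. Irf9 fell by 1.0 ± 0.31 in mutALK (adjusted p = 0.0214), by 1.69 ± 0.29 in MYCN (0.000401) and by 1.71 ± 0.31 in double transgenic tumours (0.000666). Irf1, a factor of the type II response, was the brightest of the 4. It measured 9.31, 9.50 and 8.97 in adrenal gland, 9.24, 8.26 and 7.85 in the mutALK arrays, 8.18, 7.97, 7.94 and 8.34 in the MYCN arrays and 7.82, 7.75 and 7.69 in the double transgenic arrays. Again mutALK 1 was the only tumour array within the adrenal range. Irf1 fell by 0.82 ± 0.28, 1.15 ± 0.27 and 1.51 ± 0.28 (adjusted p = 0.0365, 0.00317 and 0.000894). Stat2 and Irf7, the factor that amplifies type I interferon production, fell in MYCN (-1.12 and -1.95) and double transgenic tumours (-1.0 and -2.11). In mutALK tumours they did not pass (-0.42 ± 0.28 and -0.92 ± 0.49, adjusted p = 0.267 and 0.159).

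The IFIT family, proteins that bind foreign RNA and block its translation, held both deep falls and the one rise of the list. Log2 values of Ifit1 were 8.42, 8.41 and 8.61 in adrenal gland, 7.49, 4.88 and 4.50 in the mutALK arrays, 4.01, 4.32, 3.73 and 5.07 in the MYCN arrays and 4.30, 4.07 and 4.52 in the double transgenic arrays. All 10 tumour values lay below adrenal gland, with mutALK 1 some way above the other 9. Ifit1 fell by 2.86 ± 0.62, 4.20 ± 0.58 and 4.19 ± 0.62 (adjusted p = 0.00291, 8.21e-05 and 0.000158). Signal over background was not analysed, so at these low tumour values no fold is given. Ifit3 fell likewise (-1.82, -2.76 and -2.77). Ifit2 did the opposite. It stood at 7.76, 7.86 and 7.21 in adrenal gland, 8.04, 7.97 and 8.34 in the mutALK arrays, 8.04, 7.89, 8.19 and 7.95 in the MYCN arrays and 8.65, 8.14 and 8.38 in the double transgenic arrays. Every tumour value exceeded every adrenal value, by a small margin. The difference was 0.51 ± 0.19 in mutALK (adjusted p = 0.0463), 0.41 ± 0.18 in MYCN (0.0744, not called) and 0.78 ± 0.19 in double transgenic tumours (0.00436). The mutALK call was lost in 17 of 26 alternative settings. Ifit2 has 1 probe set here, so no other probe set checks its direction.

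The 2-5A synthetase family makes the second messenger that activates RNase L, and Oasl1 and Oasl2 are its OAS-like members. Oasl2 measured 7.66, 8.25 and 7.89 in adrenal gland, 7.61, 6.33 and 5.60 in the mutALK arrays, 4.35, 4.21, 4.21 and 4.31 in the MYCN arrays and 4.23, 4.18 and 4.69 in the double transgenic arrays. MYCN and double transgenic arrays sat together near the bottom, with the mutALK arrays between them and adrenal gland. At such low values, as for Ifit1, the size of the differences and the likeness of MYCN and double transgenic arrays are uncertain. It fell by 1.42 ± 0.38 in mutALK (adjusted p = 0.0107), by 3.66 ± 0.36 in MYCN (6.08e-06) and by 3.56 ± 0.38 in double transgenic tumours (1.57e-05). Oas1a stood at 8.54, 8.07 and 8.62 in adrenal gland, 8.38, 6.94 and 6.64 in the mutALK arrays, 6.74, 6.90, 6.76 and 6.94 in the MYCN arrays and 6.61, 6.50 and 6.15 in the double transgenic arrays. Only mutALK 1 overlapped adrenal gland. The falls of Oas1a were 1.09 ± 0.36, 1.58 ± 0.33 and 1.99 ± 0.36 (adjusted p = 0.0273, 0.00181 and 0.000623). Oasl1 fell in all 3 kinds of tumour (-1.04, -1.10 and -1.34), and Oas2 in MYCN (-0.50) and double transgenic tumours (-0.71). Oas3 read 4.38, 4.82 and 4.58 in adrenal gland, 4.94, 4.65 and 4.73 in the mutALK arrays, 4.55, 4.73, 4.56 and 4.62 in the MYCN arrays and 4.32, 4.50 and 5.06 in the double transgenic arrays. All groups overlapped. Its differences from adrenal gland were 0.18, 0.02 and 0.03, with 95% intervals of -0.22 to 0.57, -0.35 to 0.39 and -0.36 to 0.43.

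The cytosolic sensors of nucleic acid fell deeply. Dhx58 (LGP2) and Ifih1 (MDA5) detect viral double-stranded RNA. For Dhx58 the log2 values were 8.86, 8.23 and 9.42 in adrenal gland, 6.19, 5.35 and 5.04 in the mutALK arrays, 5.35, 4.91, 4.99 and 5.21 in the MYCN arrays and 4.85, 5.03 and 5.26 in the double transgenic arrays. No tumour array, mutALK 1 included, came within 2 log2 units of the lowest adrenal array. Dhx58 fell by 3.31 ± 0.32, 3.72 ± 0.30 and 3.79 ± 0.32 (adjusted p = 1.25e-05, 1.32e-06 and 2.74e-06). Ifih1 read 9.54, 8.83 and 9.74 in adrenal gland, 8.04, 7.02 and 6.20 in the mutALK arrays, 5.89, 6.01, 5.75 and 7.02 in the MYCN arrays and 6.30, 5.44 and 5.18 in the double transgenic arrays. Every tumour array lay below every adrenal array, and the kinds of tumour overlapped. Ifih1 fell by 2.28 ± 0.48, 3.20 ± 0.45 and 3.73 ± 0.48 (adjusted p = 0.00251, 9.7e-05 and 5.95e-05). Eif2ak2, the kinase PKR that stops translation on sensing double-stranded RNA, fell by 0.80, 0.94 and 1.25. Zbp1, a sensor of Z-form nucleic acid, fell in MYCN (-1.57) and double transgenic tumours (-1.71), while its mutALK difference of -0.92 ± 0.52 did not pass (adjusted p = 0.194).

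Usp18 removes Isg15 from proteins and damps the type I receptor. Its values were 8.16, 7.28 and 8.37 in adrenal gland, 7.27, 4.63 and 4.63 in the mutALK arrays, 5.44, 4.38, 4.68 and 5.14 in the MYCN arrays and 4.98, 4.42 and 3.92 in the double transgenic arrays. The tumours lay below adrenal gland, although mutALK 1 nearly reached adrenal 2. The other tumour values were low, so the size of the falls is uncertain, as for Ifit1. Usp18 fell by 2.43 ± 0.63, 3.03 ± 0.59 and 3.50 ± 0.63 (adjusted p = 0.0083, 0.00101 and 0.000643).

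The dynamin-like Mx proteins, which trap viral nucleocapsids, were dim everywhere, and C57BL/6 mice are known to carry a defective Mx1 gene. Mx1 stood at 4.42, 4.47 and 4.49 in adrenal gland, 4.95, 4.02 and 4.13 in the mutALK arrays, 4.99, 4.35, 4.12 and 4.39 in the MYCN arrays and 4.09, 4.19 and 3.87 in the double transgenic arrays. The tumour values lay on both sides of the adrenal ones. Its differences were -0.10, 0.00 and -0.41, with 95% intervals of -0.65 to 0.45, -0.52 to 0.52 and -0.96 to 0.14. Mx2 stood at 5.90, 5.79 and 6.40 in adrenal gland, 5.66, 5.57 and 5.73 in the mutALK arrays, 5.50, 5.60, 5.91 and 5.46 in the MYCN arrays and 5.61, 5.20 and 5.66 in the double transgenic arrays. It fell in double transgenic tumours alone among the calls (-0.54 ± 0.18, adjusted p = 0.0283), with -0.37 ± 0.18 in mutALK (0.127) and -0.41 ± 0.17 in MYCN tumours (0.0651). That call was lost in 6 of 25 alternative settings.

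Rsad2 (viperin), a radical enzyme that makes a chain-terminating nucleotide, and Cmpk2, the nucleotide kinase encoded beside it, are usually induced together. Rsad2 measured 11.05, 10.16 and 10.87 in adrenal gland, 8.82, 11.20 and 8.09 in the mutALK arrays, 7.37, 7.73, 6.97 and 8.34 in the MYCN arrays and 7.64, 7.65 and 7.47 in the double transgenic arrays. Here mutALK 2, not mutALK 1, was the high array and exceeded adrenal gland. Rsad2 fell in MYCN (-3.09 ± 0.60, adjusted p = 0.000979) and double transgenic tumours (-3.10 ± 0.64, 0.00164), and its mutALK difference of -1.32 ± 0.64 did not pass (0.124). Its 3 probe sets had the same sign in each of these comparisons. Cmpk2 measured 9.50, 8.74 and 9.48 in adrenal gland, 9.24, 8.96 and 8.57 in the mutALK arrays, 7.16, 7.54, 6.80 and 7.90 in the MYCN arrays and 8.93, 8.66 and 8.52 in the double transgenic arrays. Only the MYCN arrays were all below adrenal gland. Cmpk2 fell in MYCN tumours by 1.89 ± 0.27 (adjusted p = 0.00012), with -0.31 ± 0.29 in mutALK (0.448) and -0.54 ± 0.29 in double transgenic tumours (0.156). Its dimmer probe set did pass in double transgenic tumours (-0.93 ± 0.29, adjusted p = 0.0197 in a fit of all probe sets singly).

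Bst2 (tetherin), which holds budding virus at the cell surface, and Ifitm3, which blocks viral fusion in endosomes, are membrane restriction factors. Bst2 stood at 9.96, 9.49 and 9.99 in adrenal gland, 9.05, 6.95 and 6.88 in the mutALK arrays, 6.56, 6.69, 6.68 and 6.97 in the MYCN arrays and 7.44, 6.62 and 6.04 in the double transgenic arrays. Every tumour array lay below every adrenal array, with mutALK 1 nearest to adrenal gland. Bst2 fell by 2.19 ± 0.51, 3.09 ± 0.48 and 3.11 ± 0.51 (adjusted p = 0.00444, 0.000184 and 0.000325). Ifitm3 read 11.41, 11.21 and 11.25 in adrenal gland, 11.31, 9.33 and 9.37 in the mutALK arrays, 8.55, 8.84, 8.69 and 9.47 in the MYCN arrays and 9.48, 7.99 and 7.80 in the double transgenic arrays. mutALK 1 reached the adrenal level and mutALK 2 and 3 did not. Ifitm3 fell in MYCN (-2.41 ± 0.50, adjusted p = 0.00165) and double transgenic tumours (-2.87 ± 0.54, 0.000854), and its mutALK difference of -1.29 ± 0.54 did not pass (0.0757).

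The interferon-inducible GTPases take part in defence against intracellular parasites and respond strongly to type II interferon. Igtp (Irgm3) measured 10.34, 10.54 and 10.37 in adrenal gland, 10.23, 8.0 and 6.94 in the mutALK arrays, 7.03, 6.44, 6.35 and 7.38 in the MYCN arrays and 7.38, 6.99 and 6.72 in the double transgenic arrays. mutALK 1 lay just below the adrenal arrays and all other tumours far below. Igtp fell by 2.03 ± 0.63, 3.61 ± 0.59 and 3.38 ± 0.63 (adjusted p = 0.022, 0.000288 and 0.000843). Gbp2, Gbp3 and Irgm1 fell in all 3 kinds of tumour, by 1.64 to 2.34 in mutALK, 2.58 to 3.83 in MYCN and 2.58 to 3.59 in double transgenic tumours. The fifth, Iigp1, passed in none (-1.50 ± 1.31, -3.00 ± 1.22 and -3.30 ± 1.31, adjusted p = 0.411, 0.0611 and 0.0556). It varied most within groups, at 10.71 in mutALK 1 against 5.85 and 6.57 in mutALK 2 and 3, and at 8.76 in double transgenic 1 against 4.51 and 4.44 in the other two.

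Among the other effectors, Xaf1, a promoter of cell death, had the largest fall of the list by its brighter probe set, and not by the mean of its probe sets. Its log2 values of the brighter one were 10.40, 10.13 and 10.47 in adrenal gland, 8.42, 6.63 and 5.97 in the mutALK arrays, 5.59, 5.65, 5.26 and 5.74 in the MYCN arrays and 5.64, 5.19 and 5.56 in the double transgenic arrays. No tumour array reached adrenal gland, and the mutALK arrays spread over more than 2 log2 units. This probe set fell by 3.32 ± 0.46, 4.77 ± 0.43 and 4.87 ± 0.46 (adjusted p = 0.00015, 3.27e-06 and 6.24e-06). The dimmer probe set did not follow, and tested on its own it was higher in MYCN tumours (1.67 ± 0.25, adjusted p = 0.000158). The mean of the 2 probe sets gave Xaf1 differences of -1.91, -1.55 and -2.13 (adjusted p = 0.000347, 0.000589 and 0.000108), so its size rests on the brighter one. Rtp4, a receptor transport protein with antiviral action, measured 10.27, 9.60 and 10.49 in adrenal gland, 9.65, 6.72 and 6.27 in the mutALK arrays, 6.15, 6.54, 5.96 and 7.70 in the MYCN arrays and 6.39, 5.87 and 5.76 in the double transgenic arrays. mutALK 1 fell in the adrenal range. Rtp4 fell by 2.58 ± 0.74, 3.54 ± 0.69 and 4.12 ± 0.74 (adjusted p = 0.0147, 0.00109 and 0.000659).

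Ifi35, a leucine zipper protein, stood at 11.12, 11.14 and 11.12 in adrenal gland, 9.97, 9.89 and 8.98 in the mutALK arrays, 7.88, 8.38, 8.45 and 8.79 in the MYCN arrays and 8.27, 8.07 and 8.38 in the double transgenic arrays. Its adrenal values were almost equal, the mutALK arrays came next and the other tumours were lowest. Ifi35 fell by 1.51 ± 0.26, 2.75 ± 0.25 and 2.89 ± 0.26 (adjusted p = 0.000685, 2.96e-06 and 4.65e-06), and its 3 probe sets had the same sign throughout. Psme1, a subunit of the proteasome activator PA28, read 11.60, 10.99 and 11.61 in adrenal gland, 10.85, 10.39 and 10.19 in the mutALK arrays, 10.19, 10.08, 10.16 and 10.27 in the MYCN arrays and 10.40, 10.19 and 10.35 in the double transgenic arrays. The shift was small, every tumour array lay below every adrenal array, and the kinds of tumour overlapped. Psme1 fell by 0.92 ± 0.19, 1.23 ± 0.18 and 1.09 ± 0.19 (adjusted p = 0.00213, 0.000116 and 0.000535). Parp14 and Trim30a also fell in all 3 kinds of tumour, by 1.56 to 2.46 and by 2.21 to 3.95. Cxcl10, a chemokine that draws T cells, passed in none. It stood at 8.07 in mutALK 1 and between 4.93 and 5.55 in the other tumours, against 5.54, 6.06 and 5.65 in adrenal gland.

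**Figure D3:**
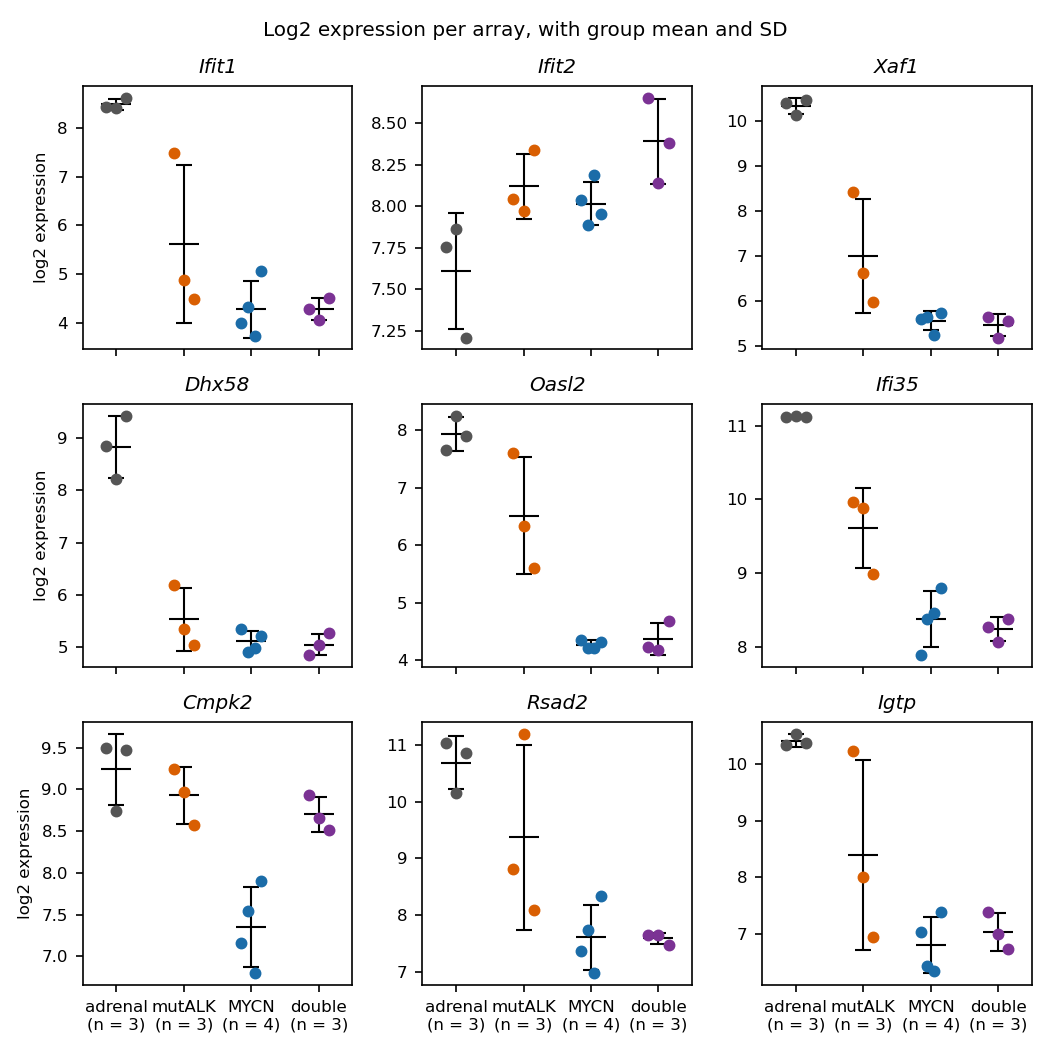
Dots are the log2 values of 9 of the genes in each array (y axis; scales differ between panels), with the group mean and SD, for adrenal gland and the 3 kinds of tumour (x axis). Ifit2 alone is higher in tumours, and Oasl2 and Ifi35 step down from adrenal gland through mutALK to MYCN tumours. The brighter probe set of Cmpk2, shown here, is low only in MYCN tumours.

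Between kinds of tumour few of the genes were called. Against MYCN tumours, 5 of the 35 were higher in mutALK tumours and 0 lower, against 13.6% and 17.2% of all genes, and at an unadjusted limma p under 0.05 in either direction there were 11. The 5 were Oasl2 (2.24 ± 0.36, adjusted p = 0.000794), Cmpk2 (1.58 ± 0.27, 0.00128), Ifi35 (1.23 ± 0.25, 0.00277), Xaf1 (1.45 ± 0.43, 0.0242) and Rsad2 (1.77 ± 0.60, 0.0424). In each of them all 3 mutALK arrays lay above all 4 MYCN arrays, except Rsad2, where mutALK 3 (8.09) was below MYCN 4 (8.34). Stat2, which was not called, was separated likewise (mutALK 2 at 5.89 above MYCN 1 at 5.72). The share of all genes so separated was not counted for these groups. The Rsad2 call was lost in 15 of 26 alternative settings. The dimmer Xaf1 probe set went the other way (-2.17 ± 0.25, adjusted p = 0.000117), so Xaf1 has no settled direction between these tumours. The share called, 14.3%, was below that of all genes in either direction, 30.8%.

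Double transgenic and MYCN tumours had 1 called gene, Cmpk2, higher by 1.35 ± 0.27 (adjusted p = 0.0098), with 0 lower, against 6.16% and 6.66% of all genes. That 1 was also the count at an unadjusted limma p under 0.05. The dimmer Cmpk2 probe set did not differ beyond its error (-0.02 ± 0.27, adjusted p = 0.973), so this call holds for 1 of 2 probe sets. The median over the 35 genes was -0.13, and single genes were loosely bounded, such as Ifit1 at 0.01 with a 95% interval of -1.26 to 1.28. Against mutALK tumours, 3 genes were lower in double transgenic tumours and 0 higher, against 6.04% and 8.39% of all genes, and 12 had an unadjusted limma p under 0.05 in either direction. They were Oasl2 (-2.15 ± 0.38, adjusted p = 0.00601), Ifi35 (-1.37 ± 0.26, 0.00786) and Xaf1 (-1.54 ± 0.46, 0.0463). The Xaf1 call was lost in 16 of 26 alternative settings and its dimmer probe set went the other way (1.10 ± 0.27, adjusted p = 0.0209).

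The median contrast between mutALK and the other tumours depended on single arrays, while some calls did not. Of the 5 calls in mutALK minus MYCN, 3 held in every alternative setting other than female arrays alone. So did 1 of the 3 in double transgenic minus mutALK. mutALK 1 was the highest of its group for 31 of the 35 genes, and mutALK 3 the lowest for 26. Without mutALK 1 the median of mutALK minus MYCN went from 0.88 to 0.14 and that of double transgenic minus mutALK from -0.90 to -0.27. There 4 and 3 genes were called, against 25.5 and 8.23% of all genes. The median of mutALK minus adrenal went from -1.32 to -1.69. In it 28 genes fell, against 39.4% of all genes called in either direction. Without mutALK 3 the calls were 14 in mutALK minus adrenal, 14 in mutALK minus MYCN and 12 in double transgenic minus mutALK. In either direction 37.8, 29.4 and 15.8% of all genes were called. The first count is near that share, but all 14 fell, and the share of all genes that fell was not counted there. Leaving out MYCN 3 left 3 calls in mutALK minus MYCN, against 25.7% of all genes. Leaving out adrenal 2 gave 5 in double transgenic minus mutALK, against 20.1%. Within the other groups, MYCN 4 was highest for 25 genes and double transgenic 1 for 18, both by less than mutALK 1 in its group.

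**Figure D4:**
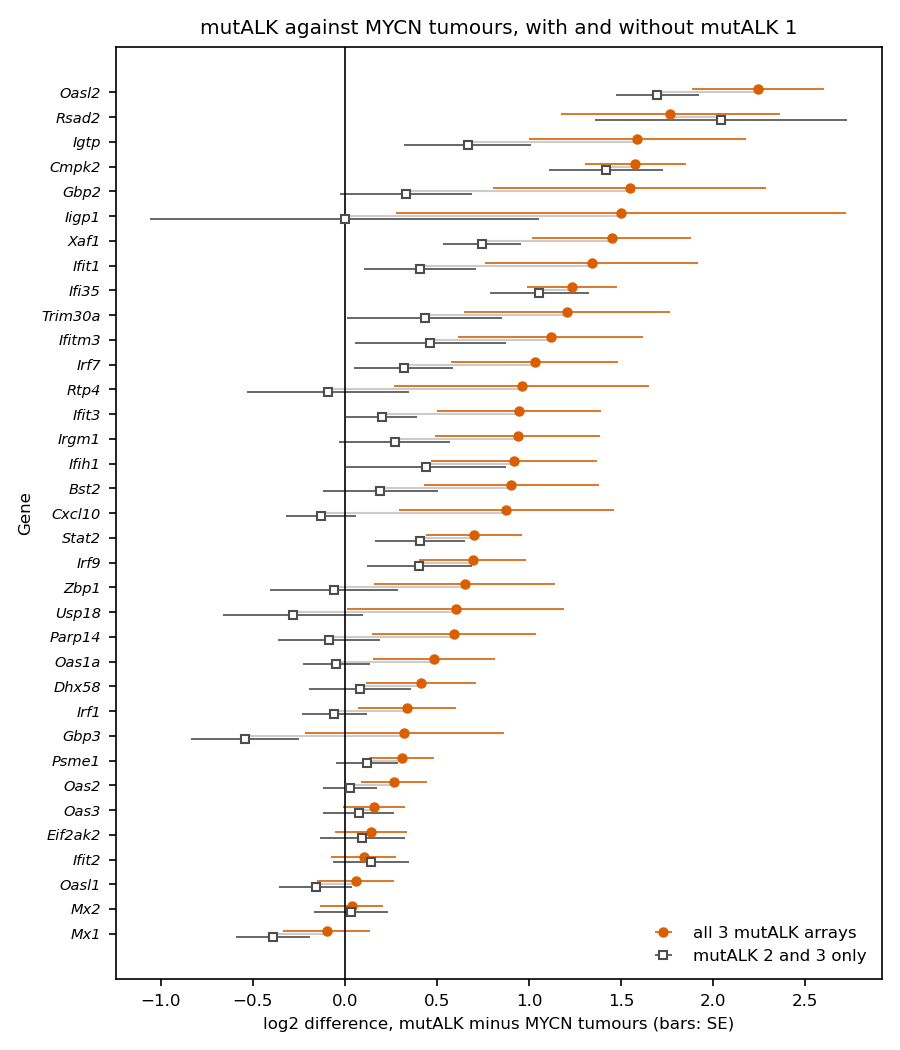
Points are log2 differences of mutALK minus MYCN tumours (x axis; bars are SE) for the 35 genes (y axis), with all 3 mutALK arrays (orange) and with mutALK 2 and 3 only (open squares, n = 2), against 4 MYCN arrays. Most genes move towards 0 without mutALK 1, where the median is 0.14, while Oasl2, Rsad2, Cmpk2 and Ifi35 stay to the right.

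Other cell types and properties moved with these values. In bulk tissue, fewer cells of a type and less RNA per cell cannot be told apart. Adrenal cortex markers (11 of 11 measured) all fell in every kind of tumour, against 21, 24.8 and 24.2% of all genes. Their median differences were -6.63, -6.73 and -6.15. Each comparison with adrenal gland thus also sets a tissue with cortex against tumours with few cortex transcripts. Endothelial markers (13 of 13 measured) averaged 8.68 to 8.80 in adrenal gland, 6.79 to 7.43 in mutALK, 6.42 to 7.61 in MYCN and 5.57 to 6.08 in double transgenic tumours. They were lower in tumours, as were most of the 35 genes, and 12, 13 and 12 of the 13 fell. Of all genes 21, 24.8 and 24.2% fell in the 3 kinds of tumour. In mutALK 1 the endothelial markers were the lowest of that group, 6.79, where the interferon-stimulated genes were highest. Macrophage markers (17 of 18 measured) stood at 7.76 to 8.55 in adrenal gland, 8.39 to 9.39 in mutALK, 7.90 to 8.62 in MYCN and 7.33 to 8.23 in double transgenic tumours. Adrenal gland overlapped every kind of tumour, while all mutALK arrays lay above all double transgenic ones. In double transgenic against mutALK tumours 6 of the 17 markers fell, against 6.04% of all genes. Fat markers (6 of 8 measured) averaged 10.56 to 12.55 in adrenal gland and 5.13 to 9.49 in the tumours, and 6, 5 and 6 of the 6 fell. Fibroblast markers (8 of 8) stood at 9.56 to 10.65 in adrenal gland, and 1, 3 and 7 of the 8 fell (12.5, 37.5 and 87.5%). The highest array of each tumour group for macrophage markers was mutALK 1 (9.39), MYCN 4 (8.62) and double transgenic 1 (8.23), the same 3 that were highest for most interferon-stimulated genes. Neutrophil markers (9 of 10 measured) stood at 6.85 to 8.39 in mutALK and 4.55 to 5.30 in all other arrays. T and NK cell markers (13 of 15) stayed between 4.65 and 5.58. The part of these cells in the differences was not tested.

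Those 3 arrays are also the tumours that read female, together with mutALK 2, and all adrenal arrays read female. With sex as a covariate 19, 27 and 27 genes fell, against 39.9, 41.8 and 41.3% of all genes called in either direction. The medians were -0.95, -1.54 and -1.91. Array by array, female MYCN 4 and double transgenic 1 each had 32 of the 35 genes below every adrenal array, mutALK 2 had 31 and mutALK 1 had 17, against 33.4 to 38.9% of all genes in these arrays. With female arrays alone, a setting chosen after the data were seen that leaves 1 MYCN and 1 double transgenic array, 4, 5 and 6 genes were called against 22.9, 20.3 and 20% of all genes. The medians there were -0.93, -1.82 and -2.18. Leaving out the 5 arrays with high liver transcripts keeps mutALK 2 as the only mutALK array. The medians against adrenal gland were then -1.65, -2.43 and -2.85. The median of mutALK minus MYCN was 0.33 and that of double transgenic minus mutALK -0.58. The arrays left out include mutALK 1 and double transgenic 1, and also mutALK 3, the lowest of its group for most genes. The part of liver tissue was not tested.

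**Figure D5:**
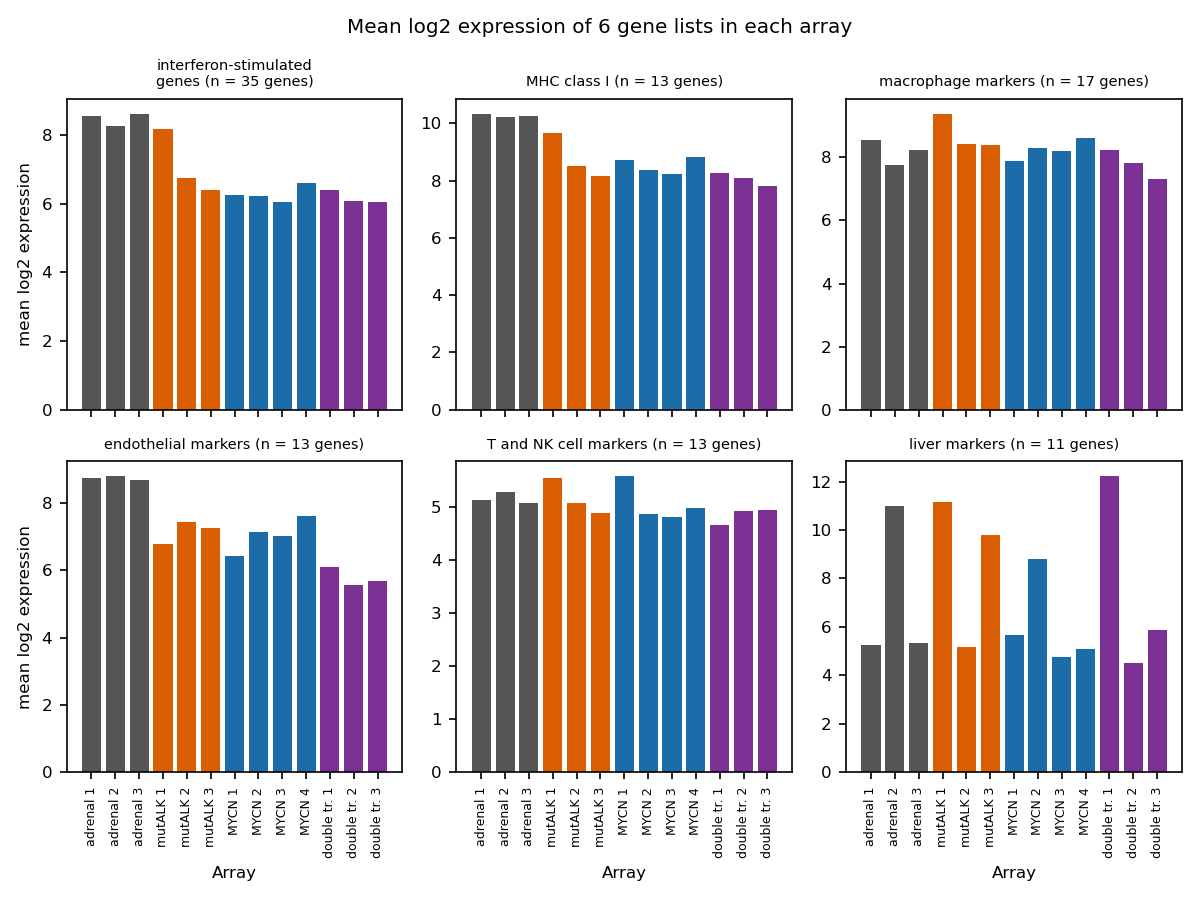
Bars are the mean log2 expression of 6 gene lists in each of the 13 arrays (x axis; grey adrenal, orange mutALK, blue MYCN, purple double transgenic; y axes start at 0). The interferon-stimulated genes and MHC class I fall together from adrenal gland to the tumours, macrophage markers are highest in mutALK 1 and overlap adrenal gland in every kind of tumour, and liver transcripts are high in 5 arrays.

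The rest of the pathway was read from lists drawn up by role. Of 21 interferon ligand genes 10 were measured and 0 were called in any comparison, with 1, 0 and 1 at an unadjusted limma p under 0.05 against adrenal gland. Their mean stood at 3.86 to 4.29 in every array, a low level at which the lack of calls does not show that the ligands were unchanged. They include Ifnb1 and Ifng, whose differences from adrenal gland lay between -0.20 and 0.07. Among receptors (6 of 7 measured) 3 fell in every kind of tumour (50%, against 21, 24.8 and 24.2% of all genes). Il10rb, a chain shared by the type III and interleukin 10 receptors, fell by 3.25, 3.70 and 4.45 (adjusted p = 3.7e-05, 4e-06 and 2.4e-06). Ifnar2, the type I chain that binds interferon most tightly, fell by 2.30, 2.37 and 2.56, and Ifngr1 by 0.58, 1.05 and 1.51. Its partner Ifngr2 rose in mutALK tumours by 0.94 (adjusted p = 0.0028). Ifnar1, the other type I chain, did not pass (-0.19, -0.07 and -0.31, adjusted p = 0.36, 0.73 and 0.12).

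In the JAK-STAT core (4 of 5 measured) all 4 fell in MYCN tumours, 3 in double transgenic and 1 in mutALK tumours. Of all genes 24.8, 24.2 and 21% fell in these. Jak1, a kinase of both receptor types, fell in all (-0.93, -0.97 and -1.53), and Stat3 in MYCN (-1.07) and double transgenic tumours (-0.90). Among 12 of 15 genes of sensing and induction, 6, 6 and 7 fell and 1 rose in each comparison with adrenal gland. The shares that fell were 50, 50 and 58.3%, against 21, 24.8 and 24.2% of all genes. In either direction 58.3, 58.3 and 66.7% were called, against 42.2, 50.2 and 48.6%. Ddx58 (RIG-I), the sensor of viral RNA ends, fell by 2.45, 2.75 and 2.85, its adaptor Mavs by 1.81, 2.43 and 2.74, and Myd88, an adaptor of Toll-like receptors, by 0.81, 1.01 and 1.73. Irf5, a factor of the Toll-like response, was the 1 that rose (0.58, 0.74 and 0.47). Of 10 measured inhibitors and nucleases that remove stimulatory nucleic acid, 2, 5 and 2 rose and 3, 2 and 2 fell, called shares of 50, 70 and 40% against 42.2, 50.2 and 48.6% of all genes. Rnaseh2b and Rnaseh2c, subunits of RNase H2, rose in MYCN tumours by 2.02 and 1.10, and Irf2, a repressor of these genes, fell by 0.59, 0.77 and 1.23.

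A second list of interferon-stimulated genes was also mostly lower in the tumours. Of 43 further genes 37 were measured, and 23, 25 and 27 fell while 1, 0 and 1 rose. The shares that fell were 62.2, 67.6 and 73%, against 21, 24.8 and 24.2% of all genes. The medians of the 37 were -1.28, -1.64 and -2.22. Ifi27, a mitochondrial protein, fell by 2.12, 3.69 and 3.30, Trim21, an antibody receptor of the cytosol, by 1.47, 2.38 and 2.48, and Trim25, the ubiquitin ligase of RIG-I, by 2.23, 2.81 and 4.04. Adar, the RNA editing enzyme that hides self RNA from MDA5, was the 1 that rose (0.86 in mutALK and 0.57 in double transgenic tumours, adjusted p = 0.0016 and 0.015). Between tumours 8 of the 37 were higher in mutALK than in MYCN tumours and 0 lower, and 9 fell in double transgenic against mutALK tumours, against 13.6% of all genes higher in the first comparison and 6.04% lower in the second. MHC class I genes and their peptide loaders, which interferons also raise, fell too. Of 13 measured, 10, 10 and 12 fell (76.9, 76.9 and 92.3%, against 21, 24.8 and 24.2% of all genes). Erap1, which trims peptides, fell by 2.85, 2.68 and 3.22, Tap2, a peptide transporter, by 1.94, 2.51 and 2.80, and Tapbp, its partner, by 1.98, 2.60 and 2.78.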

How the data were processed

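The authors' deposited values are log2 expression, RMA summaries made in Partek (version not given in the sources used here), per the submitters' processing notes. Of 45101 probe sets, 34945 name exactly 1 gene and were used, 932 name several and 9211 none. RefSeq (GRCm38.p6) held 34741 of them and changed 0 symbols. For each of 18193 genes the brightest probe set stood for the gene, with no filter on dim genes. limma 3.58.1 (lmFit, eBayes) in R 4.3.3 fitted 1 mean per group to all 13 arrays, with 9 residual and 2.28 prior degrees of freedom. Array medians lay between 5.80 and 5.90. RMA makes array distributions nearly equal, so a shift shared by most genes of an array cannot be seen. Signal over background was not analysed, and the number of arrays limits the precision.

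The members and gene lists were chosen with earlier results of these data known. Values in every array are given for the brightest member and that with the largest t in each role, the 3 with the largest and the 3 with the smallest spread of group means, and any that moved against the rest. For other lists up to 3 genes by largest t were the rule, and further ones (Ifngr2, Ifnar1, Ifnb1, Ifng, Irf5, Adar and others) were named after their values were seen, as were other members. The fit was tested on simulated data with 200 changed genes of 18193. Of the simulated shifts, 52 to 70% were found at a size of 1 and 84 to 96% at a size of 2 (log2), beside 3 to 17 false calls. The simulated noise was independent between arrays, and far fewer genes changed than the 42.2 to 50.2% called against adrenal gland. These rates therefore check the fit and do not give the rates of the comparisons here. Alternative settings changed the normalization (quantile again, median centring), the probe sets (all averaged, or all singly), the filter (dimmest 40% of genes left out), the variance model (eBayes with trend and robust, or arrayWeights), the arrays in the fit (compared groups alone, each array left out, liver-high arrays left out, adrenal 2 and double transgenic 1 left out), the handling of shared title numbers (averages or a random block), and sex (as a covariate). Female arrays alone were added after the data were seen. The plots used matplotlib 3.10.9 (Python 3.11.15).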

Additional observations from a re-analysis of the deposited data

Results flagged for a closer look

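In the MYCN group, the only one with 4 arrays, 2 of 35 genes had 1 array far from the others (beyond Dixon's 95% critical value for the gap), and chance marks about 1 group in 20. Irgm1 stood at 7.24 in MYCN 4 against 6.74 to 6.82 in the other MYCN arrays, and Zbp1 at 5.65 in MYCN 4 against 5.26 to 5.32. MYCN 4 is the MYCN array with the highest values for 25 of the 35 genes.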

How the results depend on the processing

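Every one of the calls against adrenal gland kept its sign in the alternative settings listed in the methods other than female arrays alone, reading each gene by its brightest probe set or their mean (the dimmer Xaf1 probe set opposed the call in MYCN tumours), and 8 of 23, 27 of 29 and 27 of 30 were called in all of them in mutALK, MYCN and double transgenic tumours. For mutALK minus adrenal the called count was 8 with the compared groups alone and 12 with arrays sharing a title number averaged. All of these fell. Of all genes 32.9 and 36.6% were called there in either direction, and the share of the 35 genes called was not above that. The share of all genes that fell was not counted in these settings. The called count was 14 to 28 leaving out 1 array, against 37.8 to 42.8% of all genes called in either direction. The median went to -1.72 in MYCN tumours and -2.13 in double transgenic tumours with the mean of all probe sets, to -1.54 and -1.91 with sex as a covariate, and to -1.82 and -2.18 with female arrays alone, where 5 and 6 were called. For double transgenic tumours it was -2.89 without the dimmest 40% of genes and -2.85 without the arrays with high liver transcripts or without adrenal 2 and double transgenic 1 together. For mutALK minus MYCN the count was 8 with array weights, against 37.4% of all genes called. It was 3 with the compared groups alone and with sex as a covariate, against 34.3 and 26.8%. Leaving out 1 array gave 3 to 14, against 23.4 to 35.9%. Xaf1 reversed to -0.36 (adjusted p = 0.399 in limma) with the mean of its probe sets, which pull in opposite directions. For double transgenic minus MYCN limma called 0 with the mean of all probe sets (1 at an unadjusted p under 0.05), against 11.6% of all genes. For double transgenic minus mutALK it called 1 with the compared groups alone, against 6.39% of all genes. Leaving out 1 array gave 2 to 12, against 5.53 to 20.1%. The cause of these shifts was not tested, except that fewer arrays enter where arrays are left out, averaged or compared alone, and that the female setting has 1 MYCN and 1 double transgenic array, each assumed to vary like the other groups. The labels number no replicates across groups. No paired analysis was possible because no sample of one group is tied to one of another. The 4 arrays that share a title number with an array of their own group had a consensus correlation of 0.456.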
